A study of Mus musculus with 8 samples.

Results

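The 8 genes described here encode proteins of the elastic fibre and its surroundings: Eln, Fbln5, Fbln2, Fbn1, Ltbp4, Mfap2, Mgp and Fn1. They were followed by name through the expression matrices of 8 single-cell libraries, which list 20408 genes. The cells were chosen on measured values: a cell was kept if it held at least 1 Pecam1 UMI (unique molecular identifier, 1 captured transcript) and no Pdgfrb UMI, which left 6847 of 8204 cells. The genes were named with earlier results of these data in view, so the tests below describe these libraries and are not independent support for any pattern.

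The libraries were made from adult mouse tumour endothelial cells (ECs) of the MMTV-PyMT breast cancer model, sorted for CD31, the Pecam1 protein. Tumours arose spontaneously in the transgenic animals or were implanted into the mammary fat pad from cultured PyMT tumour cells. Each tumour was injected with PBS or with cGAMP, an agonist of STING (the sensor of cytosolic cyclic dinucleotides), and the ECs were sorted hours later. Each model and treatment had 2 libraries, which gives 4 groups named below by model and agent. The labels give c57bl/6 for all libraries whereas the study's methods describe implantation into FVB mice, so the strain is not settled here. The study's methods give 2 mice per group, but the labels do not tie a library to a mouse, so p-values measure only the spread between these libraries.

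The gated cells were checked for endothelial markers. At least 3 of 6 endothelial markers had a UMI in 90.8 to 98.3% of gated cells per library. Pecam1 is among these 6 and was present in every gated cell by construction. The median depth of gated cells was 9504 to 13947 UMIs in 7 libraries and 2906 UMIs in implanted cGAMP replicate 1, where 39.2% of gated cells had fewer than 2000 UMIs. No 2 libraries shared more than 3 cell barcodes. Other cell types left traces within the gate, with Pdgfrb at 0 by construction. The summed level of 8 mural markers was 151 to 187 CPM (UMIs of the gene per cell, scaled to the same total in every cell and averaged over cells) after PBS and 123 to 156 after cGAMP in spontaneous tumours, and 194 to 204 after PBS and 135 to 300.2 after cGAMP in implanted tumours. The 7 fibroblast markers summed to 6.15 to 10.1 CPM, 19.9 to 26.1, 11.7 to 19.4 and 62.2 to 87.4 in the same order, and none of the 7 was at 0 in any library. The 8 immune markers summed to 11.3 to 14.9 CPM, 28.1 to 37.4, 11.4 to 18.9 and 40.9 to 172. The 8 epithelial markers summed to 376 to 499.5 CPM, 447 to 533, 179 to 218 and 89.3 to 740.5. The part of these cells in the results below was not tested.

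Elastic fibres give arteries and other vessels their recoil. Tropoelastin, the product of Eln, is laid down on microfibrils built from fibrillin-1 (Fbn1), to which the glycoprotein encoded by Mfap2 binds. Fibulin-5 (Fbln5) and LTBP-4 (Ltbp4) guide elastin onto these microfibrils, LTBP-4 also belongs to the family that holds latent TGF-beta, and fibulin-2 (Fbln2) lies in the elastic lamina and basement membranes. Matrix Gla protein (Mgp) binds BMPs and limits calcification of the vessel wall, and fibronectin (Fn1) is a provisional matrix protein on which fibrillin fibres assemble and to which integrins bind.

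In GRCm38 coordinates, with the GENCODE vM21 annotation, all 8 were annotated as protein coding. Eln lies on chr5:134702593-134747323, Fbln5 on chr12:101746565-101819055, Fbln2 on chr6:91212455-91272540 and Fbn1 on chr2:125300594-125507993. Mgp lies on chr6:136872435-136875823, Fn1 on chr1:71585520-71653200, Ltbp4 on chr7:27305136-27337692 and Mfap2 on chr4:141010418-141015984. The kit reads the 3′ end of transcripts, so levels are compared between samples of 1 gene and not between genes.

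Promoter windows of 300 bases around the RefSeq transcript start (GRCm38.p6) are shown for Fbln5, Fbln2 and Ltbp4, which were lower after cGAMP in both models. Capitals mark the GC box GGGCGG, the letters bound by Sp1-family factors, on either strand. Fbln5 is shown at chr12:101819070-101819369 on the minus strand, Fbln2 at chr6:91212514-91212813 on the plus strand and Ltbp4 at chr7:27337563-27337862 on the minus strand.
Fbln5: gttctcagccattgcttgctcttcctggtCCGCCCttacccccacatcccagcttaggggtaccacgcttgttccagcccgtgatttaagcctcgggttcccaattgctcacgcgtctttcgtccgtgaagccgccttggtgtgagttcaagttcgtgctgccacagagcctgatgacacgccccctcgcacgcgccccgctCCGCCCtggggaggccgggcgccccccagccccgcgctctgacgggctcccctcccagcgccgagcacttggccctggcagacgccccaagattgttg
Fbln2: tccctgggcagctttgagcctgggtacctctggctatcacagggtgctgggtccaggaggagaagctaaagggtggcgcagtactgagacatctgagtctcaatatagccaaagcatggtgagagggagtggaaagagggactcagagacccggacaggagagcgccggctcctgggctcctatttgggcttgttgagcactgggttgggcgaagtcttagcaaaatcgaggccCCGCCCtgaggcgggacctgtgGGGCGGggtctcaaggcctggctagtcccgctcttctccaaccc
Ltbp4: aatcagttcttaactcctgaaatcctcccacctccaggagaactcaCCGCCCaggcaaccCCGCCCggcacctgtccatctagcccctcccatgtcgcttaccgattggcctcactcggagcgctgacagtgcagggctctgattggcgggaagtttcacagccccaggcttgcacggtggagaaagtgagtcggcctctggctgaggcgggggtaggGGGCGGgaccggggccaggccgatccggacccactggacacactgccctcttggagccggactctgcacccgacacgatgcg
The 3 windows held 2, 2 and 3 GC boxes, and 35.7% of 32851 promoters of the same length held at least 1. The count depends on the start shown: windows at other starts held 7 and 9 for Ltbp4 and 0 for Fbln5. None of the 3 windows shown held TGANTCA (AP-1), GAAANNGAA (the core of an interferon response element), TTCNNNGAA (a STAT site) or GTGGGAA (an RBPJ site), which 7.81%, 8.56%, 8.30% and 6.38% of all promoters held. The Fbn1 window held 1 GAAANNGAA and 1 GTGGGAA, and a second Fbln5 window and a second Mfap2 window each held 1 GAAANNGAA. A match is a description of these letters only.

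The first comparison asked how the genes differed between cGAMP and PBS in each tumour model. In spontaneous tumours 5 of 8 genes were lower after cGAMP in limma's moderated test on log2(CPM + 1), at a Benjamini-Hochberg adjusted p below 0.05 over all 10347 genes tested, and none was higher. Over all genes tested 8.17% were called lower. In implanted tumours 6 of 8 genes were lower, where 16.4% of all genes were called lower. One of these 6 was Mfap2, which passed the filter on low values through the implanted PBS libraries alone, and 5 were lower without it. The median log2 difference of the 8 genes was -0.70 in spontaneous and -1.26 in implanted tumours, against -0.11 in both models over all genes. That all-gene shift depends on the scaling: with median-of-ratios scaling the share of calls that were higher moved from 37.5% to 63.9% in spontaneous and from 33.9% to 51.9% in implanted tumours.

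Eln had the largest decrease of the 8 genes in both models. Its mean level was 149.7 and 137 CPM in the spontaneous PBS libraries and 47.5 and 41.4 CPM in the spontaneous cGAMP libraries. The implanted values were 263 and 296 CPM after PBS and 74.6 and 67.3 CPM after cGAMP. No library after cGAMP reached any library after PBS in either model. Separation of this kind also held for Fbn1 and Mgp in CPM, which were called in neither model. With 2 libraries per group it does not set the called genes apart, and its share over all genes was not counted. The log2 difference was -1.67 ± 0.10 (SE; adjusted p = 3.9e-06, limma) in spontaneous and -1.96 ± 0.10 (adjusted p = 4e-06) in implanted tumours, and it was called in all 18 alternatives of each.

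The fibulins were lower in both models. Fbln5 measured 384 and 314 CPM after PBS and 236 and 207 CPM after cGAMP in spontaneous tumours. Implanted tumours had 369.96 and 440.3 CPM after PBS and 167 and 222 CPM after cGAMP. The groups did not overlap in either model. The Fbln5 log2 difference was -0.65 ± 0.15 (adjusted p = 0.019, limma) in spontaneous and -1.06 ± 0.15 (adjusted p = 8e-04) in implanted tumours. The spontaneous call was lost in 6 of 18 alternatives, among them those without spontaneous PBS replicate 1 and without either spontaneous cGAMP library. It was also lost when the arterial-marker cells defined below were removed (-0.29 ± 0.13, adjusted p = 0.16, limma). The implanted value without these cells was -1.08 ± 0.13 (adjusted p = 0.00018). Fbln2 measured 399 and 354 CPM after PBS and 227 and 246 CPM after cGAMP in spontaneous tumours. Its implanted levels were 367 and 462 CPM after PBS and 139 and 145 CPM after cGAMP. Both pairs of groups stood apart. The Fbln2 log2 difference was -0.67 ± 0.11 (adjusted p = 0.0034) in spontaneous and -1.53 ± 0.11 (adjusted p = 1.6e-05) in implanted tumours.

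Among the microfibril genes, Ltbp4 was lower and Fbn1 did not pass the test. Ltbp4 measured 411 and 393 CPM after PBS and 166 and 196 CPM after cGAMP in spontaneous tumours. Implanted tumours gave 324 and 408 CPM after PBS and 115 and 152 CPM after cGAMP. No cGAMP library reached a PBS library. Its log2 difference was -1.15 ± 0.15 (adjusted p = 0.00069, limma) and -1.45 ± 0.15 (adjusted p = 0.00012) in spontaneous and implanted tumours. Fbn1, the structural fibrillin, measured 49.9 and 37.6 CPM after PBS and 35.6 and 36.7 CPM after cGAMP in spontaneous tumours. In implanted tumours it measured 58.0 and 59.2 CPM after PBS and 52.0 and 50.4 CPM after cGAMP. Its log2 differences were -0.25 ± 0.13 (adjusted p = 0.22) and -0.19 ± 0.13 (adjusted p = 0.32).

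Mfap2 was scarce, with 243 UMIs in all gated cells. In spontaneous tumours it had 13 and 16 UMIs after PBS and 14 and 6 after cGAMP. In implanted tumours it had 78 and 82 UMIs after PBS and 17 and 17 after cGAMP. It reached the 5 CPM filter only through the implanted PBS libraries (6.26 and 5.25 CPM), the group where it was highest, so it had to differ from that group to be tested at all. With that limit its log2 difference in implanted tumours was -1.63 ± 0.42 (adjusted p = 0.018, limma). The spontaneous value was -0.73 ± 0.42 (adjusted p = 0.27).

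Mgp did not pass the test in either model. It measured 207 and 135 CPM after PBS and 107 and 105 CPM after cGAMP in spontaneous tumours. In implanted tumours it measured 309 and 292 CPM after PBS, and 241 and 92.3 CPM after cGAMP. The cGAMP replicates of the implanted tumours differed more from each other than the PBS replicates did. Its log2 difference was -0.66 ± 0.35 (adjusted p = 0.23, limma) in spontaneous and -1.002 ± 0.35 (adjusted p = 0.061) in implanted tumours. Without implanted cGAMP replicate 1, the shallow library, the implanted value was -1.69 (adjusted p = 0.00024) and the spontaneous one was called as well (adjusted p = 0.016). The spontaneous one was also called without implanted cGAMP replicate 2 (adjusted p = 0.016), since all groups share 1 estimate of the spread. With a block for the replicate number the implanted value was also called (adjusted p = 0.023).

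Fn1 measured 90.3 and 110.1 CPM after PBS and 39.9 and 28.6 CPM after cGAMP in spontaneous tumours. In implanted tumours it measured 303 and 247 CPM after PBS and 158 and 138 CPM after cGAMP. The groups did not overlap within a model. The Fn1 log2 difference was -1.53 ± 0.16 (adjusted p = 0.00021, limma) in spontaneous and -0.89 ± 0.16 (adjusted p = 0.0038) in implanted tumours. The implanted call was lost when cells with 2 or more markers of another cell type were removed (adjusted p = 0.091) and when arterial-marker cells were removed, as described below.

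**Figure D1:**
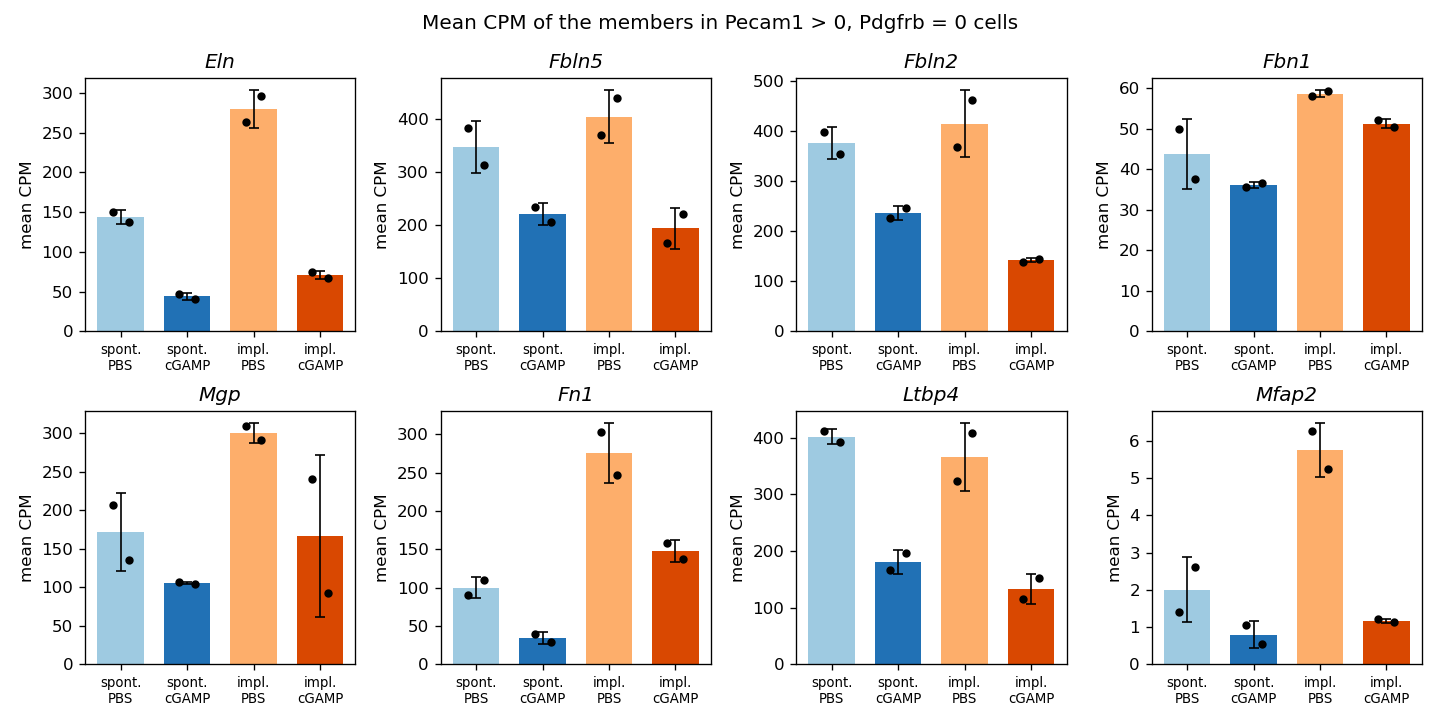
Mean CPM of each gene (y axis, linear, each panel with its own scale) in the 4 groups. Bars are means of 2 libraries, error bars are SD and points are libraries. For Eln, both cGAMP libraries of a model (41.4 to 47.5 and 67.3 to 74.6 CPM) lie below both PBS libraries.

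**Figure D2:**
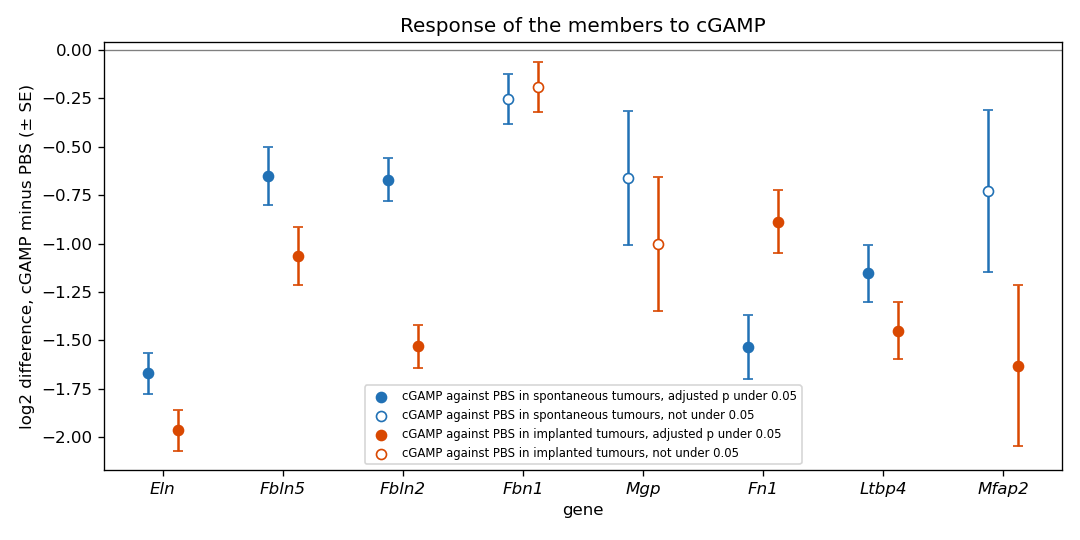
Log2 difference in CPM + 1 between cGAMP and PBS (y axis, with SE) for each gene, in spontaneous and implanted tumours. Filled points have an adjusted p under 0.05 and open points do not. All 16 values lie below 0, from -1.96 for Eln to -0.19 for Fbn1, both in implanted tumours.

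The shares of cells with a UMI were compared at equal depth, after each cell with at least 2000 UMIs was thinned to 2000. The share of cells with an Eln UMI was 13.9% ± 1.4 (SD, n = 2) after PBS and 7.17% ± 1.65 after cGAMP in spontaneous tumours, and 19.4% ± 0.64 after PBS and 10.7% ± 0.57 after cGAMP in implanted tumours. For Ltbp4 the shares were 44.6% ± 1.4, 26.2% ± 2.0, 41.4% ± 4.6 and 20.9% ± 1.9 in the same order. Fewer cells had a UMI of either gene after cGAMP in each model. In shares of this kind fewer expressing cells and less RNA of the gene per cell cannot be told apart. Unthinned, 26.9% of all gated cells had an Eln UMI and 61.2% an Ltbp4 UMI, at a median of 10852 UMIs. As a reference, the 87 epithelial-marker cells outside the gate (median 1680 UMIs) had an Eln UMI in 13.8% and an Ltbp4 UMI in 11.5% of cells. Thinned, only 27 of them were left, with shares of 22.2% for Eln and 18.5% for Ltbp4. The share of all gated cells with an Eln UMI (13.7% thinned) was not above this reference, so it is not read as a share of expressing cells. It was not even across classes, at 21.6% ± 7.0 (SD, n = 8) in arterial-marker and 1.17% ± 1.16 in tip-marker cells, the classes defined below.

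The second comparison asked whether the responses differed between the models. It called 1 of 8 genes, where 0.889% of all genes were called. The Fbln2 decrease was larger in implanted tumours, with a difference of the log2 responses of -0.86 ± 0.16 (adjusted p = 0.041, limma), but the call was lost in 11 of 18 alternatives. These included leaving out either spontaneous PBS library, either spontaneous cGAMP library, implanted PBS replicate 2 or implanted cGAMP replicate 1. The differences of the other genes ran from -0.90 for Mfap2 to 0.65 for Fn1, with adjusted p of 0.27 for Fn1 and 0.55 for Mfap2.

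The models were then compared within each treatment. After PBS, 2 of 8 genes were called, where 7.96% of all genes were called. Eln was higher in implanted tumours, by 0.96 ± 0.10 on the log2 scale (adjusted p = 0.00061, limma), and so was Fn1, by 1.45 ± 0.16 (adjusted p = 0.00073). After cGAMP, 4 of 8 genes were called, where 13.5% of all genes were called. Fn1 (2.09 ± 0.16, adjusted p = 0.00034), Eln (0.66 ± 0.10, adjusted p = 0.0044) and Fbn1 (0.49 ± 0.13, adjusted p = 0.034) were higher in implanted tumours and Fbln2 was lower (-0.73 ± 0.11, adjusted p = 0.0037). The Fbn1 call held in 8 of 18 alternatives, and the difference was 0.065 (adjusted p = 0.92) in arterial-marker cells and 0.16 (adjusted p = 0.35) with Pecam1 alone as the gate. Without spontaneous cGAMP replicate 2 only 1 of the 8 was called after cGAMP. These comparisons share libraries with those of cGAMP against PBS. In arterial-marker cells alone the Eln difference after PBS was 0.58 (adjusted p = 0.41), and without these cells the Eln difference after cGAMP was 0.41 (adjusted p = 0.068). With median-of-ratios scaling the share of calls that were higher moved from 44.3% to 64.8% after PBS and from 41.4% to 58.3% after cGAMP.

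Gated cells were next sorted into 6 marker classes (arterial, venous, tip, capillary, proliferation and lymphatic). A cell joined the class whose markers scored highest if at least 3 of them had a UMI, so a class is a range of marker scores and not a type. Each class was tested against all other gated cells of the same library, and the markers of the class were left out. These other cells hold the other classes and the cells in no class, 998 over all libraries. Depth differed between a class and the rest. Arterial-marker cells had a median of 8625 UMIs against 2512 in implanted cGAMP replicate 1, and 7508 against 10118 in spontaneous PBS replicate 1. In arterial-marker cells 7 of 8 genes were higher, where 16.2% of all genes were called higher. Mfap2 was called lower, but it reached the filter only through the other cells and so had to be lower to be tested. The median log2 difference was 1.90, against -0.04 over all genes.

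Mgp stood furthest above the rest in arterial-marker cells, by 3.33 ± 0.19 on the log2 scale (adjusted p = 4.3e-10, limma). Its level there ran from 392 to 1424 CPM with a median of 598 over 8 libraries, and both ends came from implanted cGAMP (1424 in replicate 1 and 392 in replicate 2). Fbln5 was higher by 2.66 ± 0.08 (adjusted p = 2.3e-13), with 702 to 1352 CPM and a median of 863. The next-highest Fbln5 median, in lymphatic-marker cells, was 238 CPM, and the ranges of these classes did not overlap (highest lymphatic value 368 CPM). The differences of Fn1 (2.11 ± 0.23), Eln (1.92 ± 0.13), Ltbp4 (1.88 ± 0.08), Fbn1 (1.52 ± 0.11) and Fbln2 (1.22 ± 0.10) were also called. The 1232 arterial-marker cells held 68.0% of the Mgp UMIs, 56.5% of the Fbln5 UMIs and 44.1% of the Eln UMIs of all gated cells. Markers of smooth muscle moved with this class in part. Acta2 measured 17.5 to 188 CPM in arterial-marker cells against 7.46 to 85.6 CPM in all gated cells, and Myh11 measured 0.298 to 16.2 CPM against 0.821 to 16.9 CPM. The summed mural markers were lower than in all gated cells in spontaneous PBS replicate 1 (69.5 against 187 CPM). The same was seen in spontaneous cGAMP replicate 2 (82.5 against 123 CPM). In every other library they were higher, up to 371 against 300.2 CPM in implanted cGAMP replicate 1. Their part in the arterial values was not tested.

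Venous-marker cells had their own pattern, with 7 of 8 genes called, where 26.4% of all genes were called. Fbln2 (1.07 ± 0.10, adjusted p = 8.7e-07, limma) and Eln (0.76 ± 0.14, adjusted p = 0.00067) were higher, while Fn1 (-3.26 ± 0.25, adjusted p = 1.5e-07), Mgp, Mfap2, Fbln5 and Ltbp4 were lower. Mfap2, among the 7, reached at most 4.21 CPM in venous-marker cells. It met the 5 CPM filter only through the other cells and so had to be lower to be tested. The Mgp call (-0.97, adjusted p = 0.047) held in 8 of 16 alternatives, whose values ran from -1.87 to -0.075 with adjusted p up to 0.54. Fbln2 ran from 186 to 740 CPM in venous-marker and from 332 to 851 CPM in arterial-marker cells, and it was higher in arterial-marker cells in 5 of 8 libraries. Eln ran from 65.6 to 501 CPM in venous-marker cells and from 75.0 to 601 CPM in arterial-marker cells, and it was higher in arterial-marker cells in 7 of 8 libraries. The difference between these classes was not tested. The summed mural markers were higher in venous-marker cells (153 to 713 CPM) than in all gated cells (123 to 300.2 CPM) in 8 of 8 libraries, and their part in the venous values was not tested.

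Tip-marker and capillary-marker cells held little of the Eln and Mgp UMIs, and most of the 8 genes were lower there. In tip-marker cells 8 of 8 were lower, where 16.3% of all genes were called lower, and in capillary-marker cells 7 of 8 were lower, where 12.2% were called lower. The tip call of Mfap2 (-1.03, adjusted p = 0.039) held in 5 of 14 alternatives, with adjusted p up to 0.25. Mfap2 did not reach 5 CPM in 2 tip-marker libraries, so it met the filter only with values from the other cells. That favoured a lower call, and the count of 8 includes this gene. Eln ran from 0.558 to 16.6 CPM in tip-marker cells, a log2 difference of -4.96 ± 0.35 (adjusted p = 4.6e-08, limma), and from 9.79 to 35.1 CPM in capillary-marker cells (-2.69 ± 0.23, adjusted p = 7.3e-08). Ltbp4 was less uneven, with medians of 108 CPM in tip-marker and 177 CPM in capillary-marker cells. The capillary-marker cells held 16.0% of its UMIs, against 17.5% in venous-marker cells. Fn1 was called lower in tip-marker cells (-1.23 ± 0.29, adjusted p = 0.004, limma), and the call held in 15 of 16 alternatives. In implanted cGAMP it was not lower, with 157 to 183 CPM in tip-marker cells against 138 to 158 CPM in all gated cells. In the other groups the tip-marker values lay below the gated ones. The Fn1 median in tip-marker cells over all libraries, 87.2 CPM, was still above those of venous-marker (14.3 CPM) and capillary-marker cells (21.8 CPM). Proliferation-marker cells reached 20 cells in 3 PBS libraries only. There 7 of 8 genes were lower, where 18.9% of all genes were called lower, with Mgp at -2.37 ± 0.18 (adjusted p = 3e-09).

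Lymphatic-marker cells held most of the Mfap2 UMIs and had high Fn1 levels. Of the 8 genes 6 were called, 5 of them higher, where 28.4% of all genes were called. Mfap2 measured 4.47 to 97.4 CPM there, and the 385 lymphatic-marker cells held 186 of its 243 UMIs, or 76.5%. In arterial-marker cells Mfap2 had 1 UMI in 1232 cells. The lymphatic value of Mfap2 also followed the groups, with 97.4 and 85.6 CPM in implanted PBS and 4.47 and 11.7 CPM in implanted cGAMP, from 61, 55, 12 and 17 UMIs. Its lymphatic log2 difference was 4.15 ± 0.41 (adjusted p = 2.2e-06, limma), a size that depends on the added 1 CPM because the other cells were near 0. Mfap2 reached the filter only through the lymphatic-marker cells here and so had to be higher to be tested. Fn1 ran from 193 to 1163 CPM with a median of 429, a difference of 2.42 ± 0.41 (adjusted p = 0.00034). Fbn1 was higher by 1.60 ± 0.15 (adjusted p = 1.5e-06), with a median of 126 CPM against 98.8 CPM in arterial-marker cells, and the 2 ranges overlapped. Mgp was lower, by a log2 difference of -2.15 ± 0.44 (adjusted p = 0.0017, limma), and the call held in 14 of 16 alternatives. Not every group went this way. In implanted PBS the lymphatic-marker cells had 323 to 403 CPM of Mgp, above the 292 to 309 CPM of all gated cells. In the other groups they had 8.06 to 99.6 CPM, below the gated values. The lymphatic call of Eln (0.70, adjusted p = 0.032) held in 5 of 16 alternatives, whose values ran from 0.16 to 1.23 with adjusted p up to 0.75. The summed fibroblast markers were 2.39 to 239 CPM in lymphatic-marker cells against 6.15 to 87.4 CPM in all gated cells, and higher there in 7 of 8 libraries. In implanted cGAMP replicate 1 the lymphatic-marker cells also held 1114 CPM of epithelial and 324 CPM of immune markers, above the 740.5 and 172 CPM of its gated cells. The part of these cells in the lymphatic values was not tested.

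**Figure D3:**
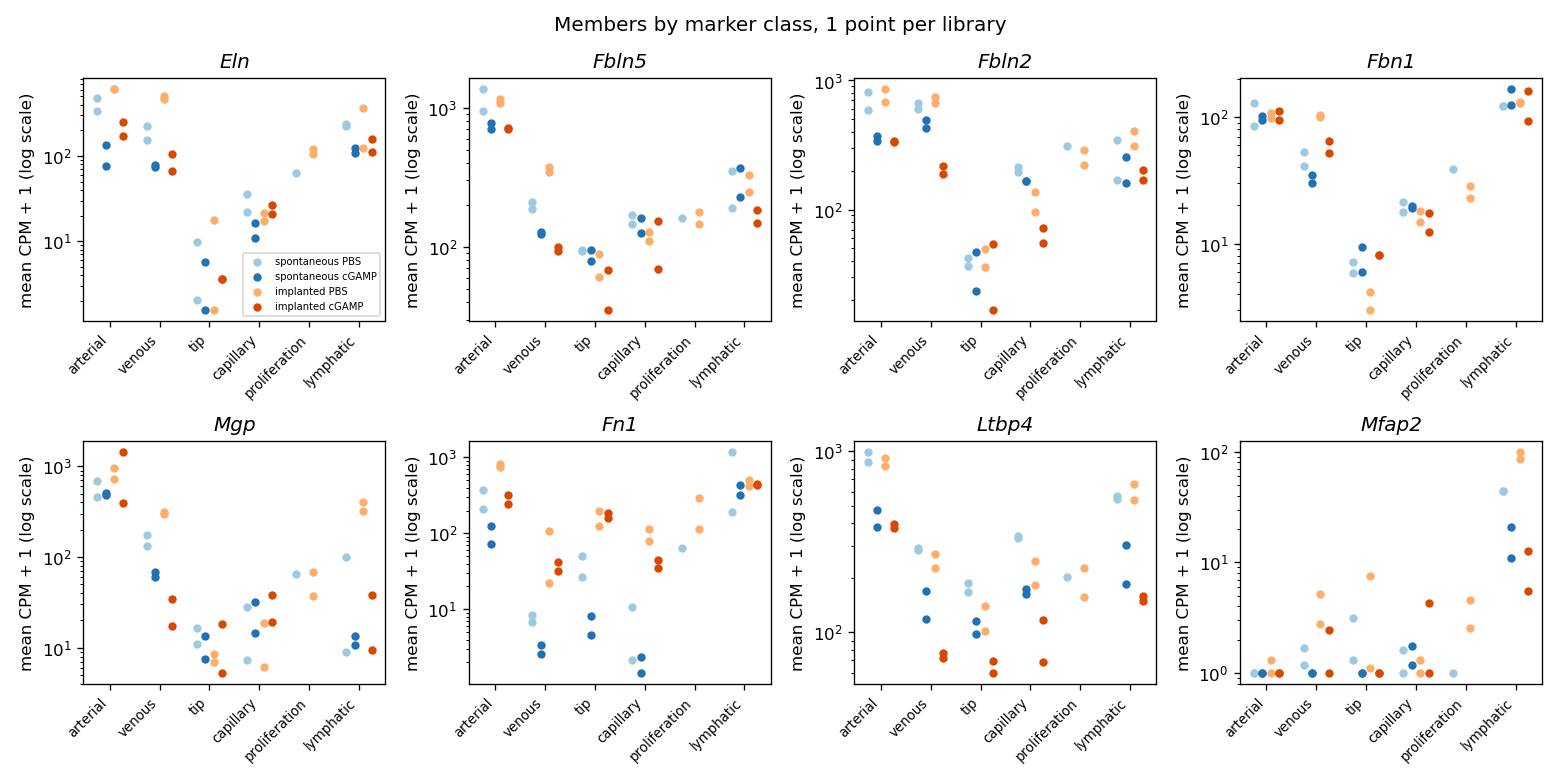
Mean CPM + 1 (y axis, log scale) of each gene in the 6 marker classes, 1 point per library with at least 20 cells, coloured by group. Fbln5 and Mgp have their highest medians in arterial-marker cells (863 and 598 CPM), and Mfap2 in lymphatic-marker cells (31.3 CPM).

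In spontaneous tumours arterial-marker cells made up 19.2 and 19.0% of gated cells after PBS and 14.7 and 15.0% after cGAMP. The implanted libraries had 20.1 and 23.9% after PBS and 13.1 and 19.1% after cGAMP. Among cells with at least 2000 UMIs the implanted values were 21.5, 24.9, 18.1 and 20.3% in the same order. The part of this share in the gated decreases was not tested. The cGAMP response was then measured inside and outside the arterial-marker cells. In these cells alone Eln measured 480.5 and 335 CPM after PBS and 134 and 75.0 CPM after cGAMP in spontaneous tumours. In implanted tumours it measured 601 and 600.2 CPM after PBS and 252 and 169.6 CPM after cGAMP. All 4 PBS libraries lay above all 4 cGAMP libraries. The log2 difference was -1.99 ± 0.24 (adjusted p = 5.8e-05, limma) and -1.53 ± 0.24 (adjusted p = 0.00075), and without these cells it was -1.21 ± 0.13 (adjusted p = 0.00013) and -2.04 ± 0.13 (adjusted p = 4.6e-06). Venous-marker cells showed the same direction, with Eln at 188 ± 47 CPM (SD, n = 2) after PBS and 75.2 ± 2.3 after cGAMP in spontaneous tumours, and at 484 ± 23 and 84.5 ± 27 in implanted tumours.

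In implanted tumours the Fn1 decrease was called inside this class and not outside it. In arterial-marker cells it measured 826 and 746 CPM after PBS and 316 and 244 CPM after cGAMP, a log2 difference of -1.50 ± 0.25 (adjusted p = 0.0014, limma). Without these cells the difference was -0.02 ± 0.46 (adjusted p = 0.98, limma). The make-up of the remaining cells also changed. Lymphatic-marker cells were 5.39 and 3.94% of gated cells after PBS and 8.71 and 9.74% after cGAMP. They held 9.78% ± 3.0 (SD, n = 2) of the gated Fn1 UMIs after PBS and 39.6% ± 4.4 after cGAMP. The part of this change in the value of -0.02 was not tested. The lymphatic-marker cells measured 511 and 425 CPM after PBS and 452 and 429 CPM after cGAMP, and the tip-marker cells 162 ± 51 (SD, n = 2) and 170.3 ± 18. The capillary-marker cells measured 114 and 78.9 CPM after PBS and 43.0 and 34.0 CPM after cGAMP, with no overlap. The venous-marker cells measured 106 and 21.1 CPM after PBS and 40.8 and 31.1 CPM after cGAMP, which overlapped. The difference between the arterial and the other cells in this response was not tested. In spontaneous tumours the arterial value was -1.55 ± 0.25 (adjusted p = 0.0012) and the value without these cells was -0.95 ± 0.46 (adjusted p = 0.21).

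For Mgp the decrease in implanted tumours was called outside this class and not inside it. In arterial-marker cells its cGAMP differences were -0.18 ± 0.38 (adjusted p = 0.86, limma) in spontaneous and -0.15 ± 0.38 (adjusted p = 0.90) in implanted tumours, and without these cells they were -0.97 ± 0.37 (adjusted p = 0.11) and -2.01 ± 0.37 (adjusted p = 0.0028). Arterial-marker cells held 59.1 and 59.4% of the Mgp UMIs in the implanted PBS libraries and 92.4 and 87.7% in the implanted cGAMP libraries. Fbn1 measured between 84.0 and 127 CPM in arterial-marker cells of all 8 libraries.

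**Figure D4:**
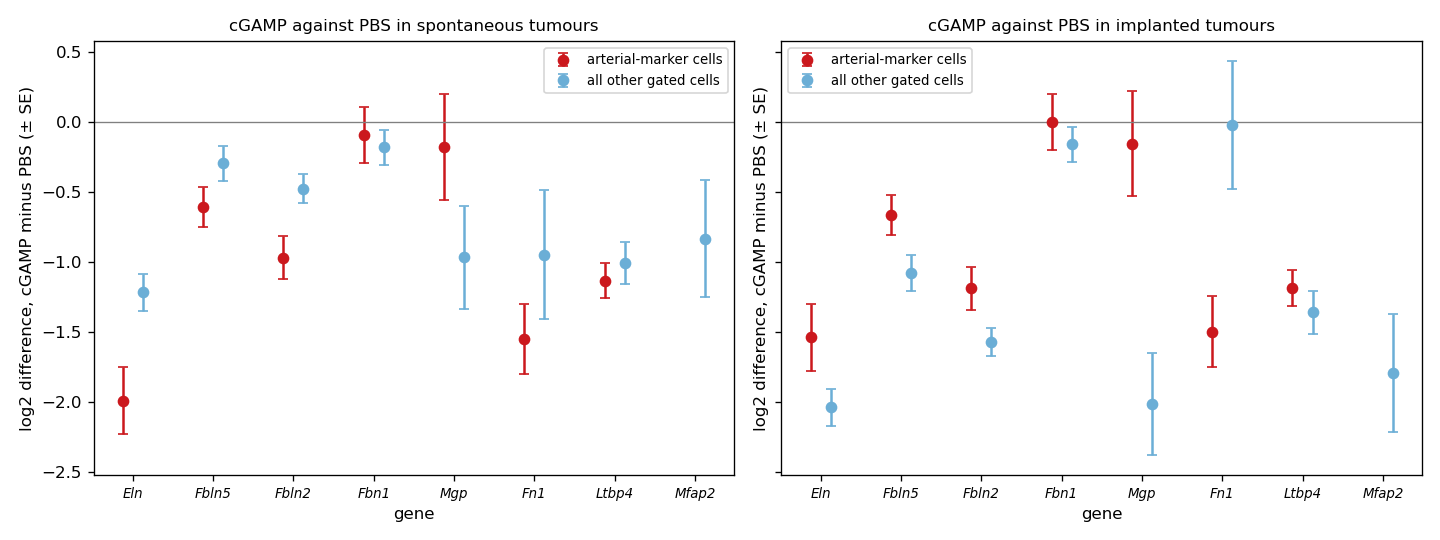
Log2 difference in CPM + 1 between cGAMP and PBS (y axis, with SE) in arterial-marker cells and in all other gated cells, for spontaneous (left) and implanted tumours (right). For Fn1 in implanted tumours the values are -1.50 and -0.02, and Mfap2 was not tested in arterial-marker cells.

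Other genes of elastic fibre and fibronectin biology were counted in fixed lists. The share of all genes called higher, against which these counts are read, was 4.9% in the spontaneous and 8.4% in the implanted model. The share called lower was 8.17% and 16.4%, as above. Of 9 tested genes of fibre assembly, 1 was higher and none lower in spontaneous tumours, and 3 were higher and 1 lower in implanted tumours. Efemp1 (fibulin-3) rose by 1.91 ± 0.32 on the log2 scale in spontaneous tumours (adjusted p = 0.0039, limma). Ltbp1 rose by 1.27 ± 0.18 (adjusted p = 0.001) and Ltbp2 by 2.13 ± 0.56 (adjusted p = 0.02) in implanted tumours. Of 4 cross-linking enzymes, Lox, the lysyl oxidase that joins elastin chains, was lower in spontaneous tumours (-1.75 ± 0.27, adjusted p = 0.0025), and 2 were higher in implanted tumours. Lox was also higher in arterial-marker cells, by 3.89 ± 0.18 (adjusted p = 3.3e-11), as Loxl2 was in lymphatic-marker cells, by 4.33 ± 0.26 (adjusted p = 1.7e-08).

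Of 7 fibronectin receptor genes, 1 was higher and 1 lower in spontaneous tumours, and 3 were higher and 1 lower in implanted tumours. The integrin subunit gene Itgb3 rose in both (0.93 ± 0.15 and 1.27 ± 0.15) and Itga9 fell in both (-0.91 ± 0.14 and -0.77 ± 0.14). Of 10 proteases and inhibitors, 2 were higher and 1 lower in spontaneous tumours, and 4 were higher and 2 lower in implanted tumours. Ctss, an elastin-degrading cathepsin that immune cells also make, rose by 1.29 ± 0.36 (adjusted p = 0.045, limma) and 4.03 ± 0.36 (adjusted p = 5.9e-05), beside the immune marker levels given above. The protease inhibitor gene Timp1 rose by 0.40 ± 0.11 and 1.36 ± 0.11. Of 6 TGF-beta and BMP ligand genes, none was higher and 1 lower in spontaneous tumours, and 1 was higher and 2 lower in implanted tumours. Bmp4, whose product MGP binds, fell in both (-0.80 ± 0.15 and -0.50 ± 0.15). Of 10 other vessel matrix genes, 3 were lower in spontaneous tumours, and 4 were higher and 5 lower in implanted tumours, with Vwf (von Willebrand factor) at -1.32 ± 0.19 and -2.26 ± 0.19 and Tnc (tenascin-C) at 2.82 ± 0.33 in implanted tumours.

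The genes closest in pattern were sought over 43 library-by-class means among 8443 genes outside the class marker lists whose mean reached 10 CPM. Since points share libraries, depth and class definitions, the correlations are descriptions. Eln was most like Mall (Pearson r = 0.907), Fbln2 (0.901) and Fbn1 (0.899). Fbln5 was most like Lamb2 (0.908), Ltbp4 was most like Gatsl3 (0.900) and Fbln2 was most like Eln. Fbn1 was most like Itgb4 (0.8999), Mgp most like Pir (0.851), Fn1 most like Ddah1 (0.832) and Mfap2 most like Pkhd1l1 (0.916). Of the pairs within the 8 genes the lowest correlation was between Mgp and Mfap2 (-0.032).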

How the data were processed

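Single-cell 3′ libraries (10x Genomics, v3 chemistry) of sorted tumour ECs were processed by the authors with Cell Ranger 3.0.0 and Seurat 3.1.1 on mm10, per the labels. The deposited values are natural log values, ln(1 + UMIs × 10000 / total UMIs of the cell). Every cell held at least 501 genes and at most 10.0% mitochondrial UMIs. Whole UMIs were recovered from 100.0% of values within 0.01. Gated libraries held 6937638 to 16165279 UMIs, and 0 tables had unmapped columns. No doublet caller was run here.

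Mean CPM per cell over gated cells was tested as log2(CPM + 1) with limma 3.58.1 (R 4.3.3), with 1 moderated fit of all 8 libraries, a filter of 5 CPM in at least 2 libraries, and Benjamini-Hochberg adjustment at 0.05. The filter kept all 8 genes. Classes were tested within libraries, with library as a block and at least 20 cells per class and library. The fits were tested on simulated data. Alternatives were a pseudocount of 5, no filter, median-of-ratios scaling, summed UMIs, other gates, a depth minimum of 2000 UMIs, a minimum of 4 markers, arterial-marker cells alone or left out, a replicate block and leaving out each library. Pathway genes were named by rule: in each list, the 2 called genes with the largest difference in each direction. Of these and of the 3 likeness genes per member, the text gives a selection. The members and lists were chosen with earlier results of these data known. Promoter windows came from RefSeq (GRCm38.p6), and 5 of the 8 genes matched. Python 3 scripts used numpy and scipy.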

Additional observations from a re-analysis of the deposited data

Results flagged for a closer look

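The Fbln2 response to cGAMP passed the test of a difference between the models, with a difference of the log2 responses, implanted minus spontaneous, of -0.86 ± 0.16 (limma, adjusted p = 0.041). The call was lost in 11 of 18 alternatives, and the values ran from -1.09 to -0.22 with adjusted p from 0.0061 to 0.89.

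Cells outside the gate also held these genes. In the 104 mural-marker cells without Pecam1 (median 8308 UMIs), which no comparison used, Mgp averaged 5899 CPM from 8105 UMIs, against 209 CPM in the gated cells. In the same cells Fn1 averaged 289 CPM, Fbn1 276 CPM and Mfap2 19.1 CPM, each above its mean in gated cells (156, 49.6 and 2.64 CPM). These are values over cells pooled across libraries, with no test.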

How the results depend on the processing

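Of 88 gene-level results, 1275 alternative values kept direction and side of the threshold, 77 lost a call, 27 gained one and 25 changed sign, and the cause was not tested. The count of genes called in spontaneous tumours fell from 5 to 3 with the stricter gate (no cells with 2 or more markers of another cell type) and to 3 without arterial-marker cells. The count for the difference of responses fell from 1 to 0 with no filter, with summed UMIs, with Pecam1 alone, with the stricter gate and in arterial-marker cells, and ranged from 0 to 1 when a library was left out. After PBS the model count was 1 of 8 in arterial-marker cells. After cGAMP it was 2 with the stricter gate and 2 in arterial-marker cells, and when a library was left out it reached 1, without spontaneous cGAMP replicate 2.

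Sign changes were all between values that missed the threshold. With Pecam1 alone as the gate the Mgp spontaneous response was 0.29, the Fbn1 difference of responses -0.11, and the model differences after cGAMP -0.94 for Mgp and -0.10 for Mfap2. In arterial-marker cells the Fbn1 implanted response was 0.0013, the differences of responses 0.45 for Eln and 0.023 for Mgp, and the model differences after PBS -0.013 for Fbln5 and -0.026 for Fbn1. With summed UMIs the differences of responses were 0.26 for Eln and 0.25 for Mgp, and the Fbln5 model difference after cGAMP 0.048. The latter was 0.030 in cells of at least 2000 UMIs and 0.0085 without implanted cGAMP replicate 1 (-0.41 without replicate 2), where the Mgp model difference was -0.19 (1.18 without replicate 2, and -0.043 without arterial-marker cells). The difference of responses was -0.14 for Fbn1 with the stricter gate and -0.14 without spontaneous PBS replicate 1, and 0.35 for Mgp without implanted cGAMP replicate 2 (-1.03 without replicate 1). After PBS the model difference was -0.034 for Fbln2 without implanted PBS replicate 2 (0.30 without replicate 1) and 0.021 for Ltbp4 without implanted PBS replicate 1 (-0.31 without replicate 2). Within cGAMP libraries the venous Fbn1 value was -0.030 and the lymphatic values 0.089 for Fbln5 and 0.095 for Fbln2, the last 0.13 with the stricter gate.

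The replicate numbers did not pair the libraries: correlations of deviations between groups ran from -0.167 to 0.135. With a replicate block the counts of genes called were 5, 7, 1, 2 and 5 in the 5 condition comparisons, against 5, 6, 1, 2 and 4. With median-of-ratios scaling 1062 and 2239 of all genes were called for cGAMP in spontaneous and implanted tumours, against 1352 and 2564, and with summed UMIs 3114 and 3784. Depth limits Mfap2 most, at 6 to 82 UMIs per library.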
